A study of Homo sapiens with 13 samples.

Results

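GSTM1 and GSTM2 are mu-class glutathione S-transferases, cytosolic enzymes of detoxification. These 2 of the 8380 genes in the normalized table were taken with every probe annotated to them, 3 of 12007: ILMN_2391861 for GSTM1, and ILMN_2201580 and ILMN_1713162 for GSTM2. All 3 were used, with no further filter on low values. The genes were singled out because their excess with miR-17-5p over unrelated pull-downs was among the largest in the table. Every contrast that holds the miR-17-5p libraries is therefore a description for them, without a test, and so is that of the isomiR, which uses the same comparator libraries. Contrasts among the unrelated pull-downs are descriptions for them as well, since these libraries are the comparators. The samples were 13 libraries of mRNA captured on streptavidin beads from HEK293T cells (a human embryonic kidney line) that were harvested 24 h after transfection with 200 pmol of a biotinylated miRNA duplex. By their labels the groups differed only in the duplex. The canonical miR-17-5p, its isomiR and miR-27a had 3 libraries apiece, whereas miR-182-iso and miR-23b had 2. The suffix iso marks an isomiR, a variant of a miRNA whose ends lie some bases away from the usual ones. Neither mock-transfected cells nor input RNA are among these 13 libraries. Every difference is therefore relative to the other pull-downs, and stronger capture cannot be told apart from more of the mRNA in the transfected cells.

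Glutathione S-transferases join the tripeptide glutathione to electrophilic compounds, which makes them more soluble and prepares them for export. They fall into classes named by Greek letters, and the mu-class genes GSTM1 to GSTM5 lie side by side on chromosome 1, in the order GSTM4, GSTM2, GSTM1, GSTM5 and GSTM3 in the RefSeq annotation. The mu genes are close copies of each other, and the sequences of the array probes were not used here, so cross-hybridization between their mRNAs was not tested. A miRNA guides an Argonaute protein to mRNAs that pair with it, in the classical mode through the seed at bases 2 to 8, and the study asked whether pairing to the center of the miRNA also captures mRNA.

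The guide strands of the duplexes are shown because the seeds separate the groups that are compared. They are those of the study's design, written 5′ to 3′ with the seed in capitals:
miR-17-5p: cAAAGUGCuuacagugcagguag
miR-17-5p-iso: uCAAAGUGcuuacagugcaggua
miR-23b: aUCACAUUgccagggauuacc
miR-27a: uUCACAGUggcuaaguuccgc
miR-182-iso: uGGCAAUGguagaacucacacu
The miR-17-5p guide was identical to RefSeq's hsa-miR-17-5p (GRCh38.p14, chr13:91350618-91350640, + strand). The isomiR guide carried 1 more base at its 5′ end and then ran along the first 22 bases of the canonical sequence, so that its seed was moved by 1 base while the center was shared. The miR-27a guide equaled hsa-miR-27a-3p (chr19:13836447-13836467, - strand), and the miR-23b guide held the first 21 of the 23 bases of hsa-miR-23b-3p (chr9:95085265-95085287, + strand). The miR-182-iso guide began at base 3 of hsa-miR-182-5p (chr7:129770447-129770470, - strand). Transcript sequences were not used here, so GSTM1 and GSTM2 were not searched for matches to these seeds or centers.

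Values are signals as the authors had normalized them. The scale approaches log2 at high signal and flattens toward its floor, the lowest value being 7.42 and the library medians 8.53 to 8.60. Libraries of one group correlated at a Pearson r of 0.94 to 0.98 over all probes, and libraries of different groups at 0.80 to 0.97. The 2 miR-182-iso libraries joined the other 11 last in average-linkage clustering, so results that rest on them are also given without them. Of 7 genes listed as known in HEK293T cells 6 were measured, at 7.44 to 13.30, and of 10 markers of other cell types only COL1A1 was, at 7.48 to 7.59. The lowest values of both lists lay near the floor. Only probes detected in the mock-transfected controls had been kept, so these counts are no test of cell identity. The labels do not say whether replicates came from separate cultures, so p-values measure the spread between these libraries only. Precision is limited by how few arrays each group has.

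The GSTM1 probe read high in every library of miR-17-5p and of its isomiR and lower in every library of the 3 unrelated duplexes. With miR-17-5p, the GSTM1 signal was 12.01, 11.48 and 12.24 in replicates 1, 2 and 3. With miR-17-5p-iso it was 11.27, 11.26 and 11.61. With miR-182-iso it was 9.42 and 9.55, with miR-23b 9.08 and 9.07, and with miR-27a 8.88, 8.62 and 8.52. The canonical and isomiR libraries overlapped, since miR-17-5p replicate 2 lay below miR-17-5p-iso replicate 3. No other neighboring groups overlapped in the descending order of the canonical miRNA, the isomiR, miR-182-iso, miR-23b and miR-27a.

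The brighter GSTM2 probe, ILMN_2201580, gave almost the same profile. Its signals were 11.99, 11.30 and 12.30 with miR-17-5p and 11.11, 11.37 and 11.43 with miR-17-5p-iso. They were 9.37 and 9.53 with miR-182-iso, 9.04 and 9.31 with miR-23b, and 8.88, 8.68 and 8.58 with miR-27a. The groups stood in the same order as for GSTM1, and again only the canonical miRNA and its isomiR overlapped. After each probe was centered on its own mean, the GSTM1 probe and this GSTM2 probe differed by at most 0.25 in any library.

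The other GSTM2 probe, ILMN_1713162, was dim, with 30.0% of all probes dimmer than it, against 82.5% for the GSTM1 probe. Its signals were 9.10, 7.82 and 8.68 with miR-17-5p and 8.16, 8.45 and 9.13 with the isomiR. In the 7 unrelated libraries they lay between 7.45 and 7.59, next to the lowest value in the table, where the scale is compressed. All 6 libraries of the miR-17 family were above all 7 others, but the spread within the family was wide, and replicate 2 of miR-17-5p was again its lowest library. The genes were chosen for their height over these 7 libraries, so nothing is read from the separation. Over the 13 libraries, this probe had a Pearson r of 0.88 with the GSTM1 probe, as a description. Within the 6 libraries of the miR-17 family r was 0.55, whereas it was 0.96 between the GSTM1 probe and the brighter GSTM2 probe.

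**Figure D1:**
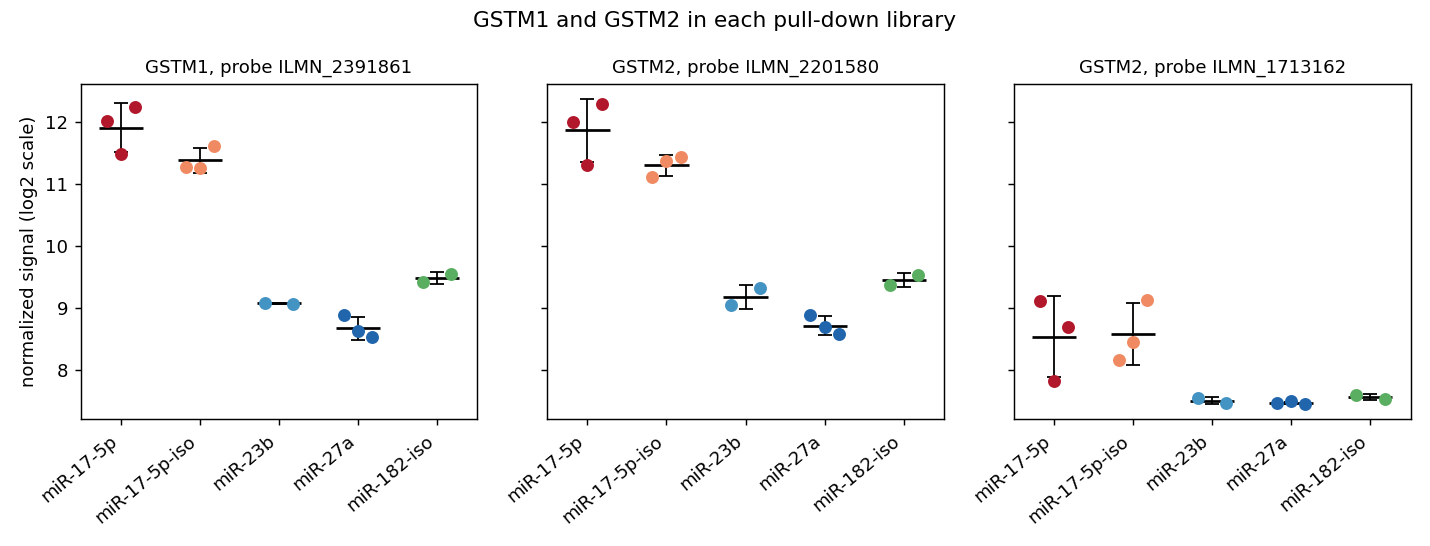
Normalized signal (log2 scale, vertical axis) of the GSTM1 probe and both GSTM2 probes in each library, by pull-down. Points are libraries, horizontal lines are group means and bars are the SD (n = 3, or n = 2 for miR-23b and miR-182-iso). In all 3 panels, the 6 libraries of miR-17-5p and its isomiR lie above the 7 others, which for the dim probe sit between 7.45 and 7.59. The genes were chosen for their height with miR-17-5p over these 7 libraries, so nothing is read from that. The share of all probes that separate in this way was not computed.

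In the contrast that singled these genes out, miR-17-5p minus the equally weighted mean of miR-23b, miR-27a and miR-182-iso, GSTM1 stood 2.83 higher on the log2 scale (standard error 0.16), the highest of all 12007 probes. The brighter GSTM2 probe ranked 3 with 2.75 (standard error 0.19) and the dim one ranked 210 with 1.03 (standard error 0.26). In this contrast 5.34% of probes were called higher, a background from which nothing is read for genes chosen on it. GSTM1 was 11.91 ± 0.39 (SD, n = 3) with miR-17-5p and 11.38 ± 0.20 (SD, n = 3) with the isomiR, a difference of 0.53 (standard error 0.18). For GSTM2 the same difference was 0.56 (standard error 0.22) at the brighter probe and -0.05 (standard error 0.30) at the dim one. The last changed sign with single libraries, to 0.31 without miR-17-5p replicate 2 and 0.23 without miR-17-5p-iso replicate 3.

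The isomiR libraries did not enter that choice, but the 7 comparator libraries did, so the isomiR difference is given as a description too. GSTM1 stood 2.30 higher on the log2 scale with miR-17-5p-iso than with the unrelated duplexes (standard error 0.16). GSTM2 stood 2.19 higher at the brighter probe (standard error 0.19) and 1.07 higher at the dim one (standard error 0.26). In this contrast 5.11% of all probes were called higher (limma, where the p-value adjusted over the whole table by Benjamini and Hochberg was under 0.05), a background from which nothing is read for these genes. Without any 1 library the GSTM1 difference lay between 2.19 and 2.36 and that of the brighter GSTM2 probe between 2.12 and 2.28. The dim probe ranged more widely, from 0.80 without isomiR replicate 3 to 1.28 without isomiR replicate 1.

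Among the 3 unrelated duplexes, GSTM1 was lower with miR-27a than with miR-182-iso. The choice of the genes did not set these duplexes against each other. It did use their libraries, so the differences are given as a description too. The difference was -0.81 on the log2 scale (standard error 0.21). The brighter GSTM2 probe was lower too, at -0.74 (standard error 0.24), whereas the dim probe differed by -0.09 (standard error 0.34). In this contrast 19.9% of all probes were called lower by limma, a background from which nothing is read for these genes. Without any 1 library the GSTM1 difference lay between -0.92 and -0.74 and that of the brighter GSTM2 probe between -0.82 and -0.66. Between miR-23b and miR-27a the GSTM1 difference was 0.40 (standard error 0.21), and 7.06% of all probes passed by limma. Between miR-23b and miR-182-iso the GSTM1 difference was -0.41 (standard error 0.23), and 24.6% of all probes passed. For GSTM1 the libraries did not overlap in either contrast, but the groups are small and nothing is read from their order.

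The rest of the family was measured by 8 probes of 7 genes whose symbol starts with GST. They were taken by symbol and not by their values, though with earlier results of these data known. With miR-17-5p, 0 of the 8 were higher and 1 lower by limma (5 of 8 had an unadjusted p under 0.05), against 9.85% of all probes called in either direction. Their median difference was 0.07, against -0.02 over all probes. With the isomiR, 0 were higher and 1 lower as well (1 of 8 had an unadjusted p under 0.05), against 7.85%, with a median of -0.17 against -0.03. GSTM3, the mu-class gene at the end of the cluster, had a mean of 7.66 ± 0.13 (SD, n = 3) with miR-17-5p and 7.61 ± 0.086 (SD, n = 3) with the isomiR. Its differences from the unrelated pull-downs were -0.11 (95% interval -0.32 to 0.11, adjusted p = 0.551 from limma) and -0.15 (95% interval -0.37 to 0.06, adjusted p = 0.384). The probe is dim, with values of 7.54 to 8.18, so its differences are understated. GSTA4, an alpha-class enzyme that acts on lipid peroxidation products, was the probe that fell, by 0.53 with miR-17-5p (adjusted p = 0.0481) and by 0.56 with the isomiR (adjusted p = 0.0472). Both calls lay at the threshold. The first was lost without any 1 of 11 libraries (adjusted p of 0.0578 to 0.201; it held without canonical replicate 2 or miR-27a replicate 3) and the second without any 1 of 10 (0.0566 to 0.197; it held without canonical replicate 2 or 3 or miR-27a replicate 3). Without both miR-182-iso libraries the adjusted p-values were 0.136 and 0.137. They were 0.135 and 0.133 with all other pull-downs as the comparator, and 0.0575 and 0.0524 with quantile normalization.

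In the unrelated pull-downs, other GST genes moved. With miR-182-iso, 4 of the 8 probes were higher and 1 lower, against 32.4% of all probes called, and the median was 0.56 against -0.0041 over all probes. GSTO1, of the omega class, was read at 11.69 and 12.01 by ILMN_1808196 and at 12.36 and 12.40 by ILMN_2227573 with miR-182-iso. All 11 other libraries were lower at both probes, with maxima of 10.40 and 11.64. The share of all probes that separate in this way was not computed. The differences were 2.71 (standard error 0.33, adjusted p = 0.000445 from limma) and 1.85 (standard error 0.17, adjusted p = 0.000112). GSTK1, of the kappa class of mitochondria and peroxisomes, was 0.64 higher (adjusted p = 0.00163). GSTA4 was 0.55 higher (adjusted p = 0.0284), a call lost without miR-23b replicate 1 (0.0575) or miR-182-iso replicate 1 (0.117) or 2 (0.202). GSTTP2, a pseudogene of the theta class, was lower at -1.09 (adjusted p = 0.000672).

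With miR-27a, 2 of the 8 probes were higher and 4 lower, against 30.4% of all probes called, with a median of -0.43 against -0.03 over all probes. GSTP1, the pi-class enzyme that many cultured cells make in quantity, was 0.84 below the unrelated pull-downs (adjusted p = 0.0120 from limma). Its values were 10.94, 10.77 and 11.13 with miR-27a, and the 2 miR-182-iso libraries stood at 11.93 and 12.05. The call was lost without miR-27a replicate 2 (adjusted p = 0.0512) and without both miR-182-iso libraries (-0.73, adjusted p = 0.0554). GSTK1 was lower at -0.51 (adjusted p = 0.00340) and kept its call without any 1 library. GSTO1 was lower at -1.35 and -1.06 at its 2 probes (adjusted p = 0.00742 and 0.00141), but without both miR-182-iso libraries the differences were -0.50 and -0.50 (adjusted p = 0.317 and 0.0753). GSTTP2 was 0.57 higher (adjusted p = 0.00876), and 0.23 without those libraries (adjusted p = 0.265). GSTM3 was 0.28 higher (adjusted p = 0.0462), a call lost without any 1 of 10 libraries (adjusted p of 0.0574 to 0.214; it held without canonical replicate 2, isomiR replicate 1 or miR-27a replicate 2), and its adjusted p was 0.127 without both miR-182-iso libraries.

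With miR-23b, 1 of the 8 probes was higher and 2 were lower, against 8.91% of all probes called. GSTTP2 was 0.76 higher (adjusted p = 0.0152 from limma), and both GSTO1 probes were lower, at -1.37 (adjusted p = 0.0335) and -0.89 (adjusted p = 0.0154). All 3 calls were lost without miR-23b replicate 1 (adjusted p = 0.172, 0.317 and 0.159) or 2 (0.128, 0.141 and 0.140), and the first GSTO1 call also without miR-182-iso replicate 2 (0.0722). With that group left out the differences were 0.44, -0.52 and -0.30 (adjusted p = 0.118, 0.423 and 0.369). GSTZ1, of the zeta class, which works in tyrosine breakdown, did not pass in any of the 5 pull-downs, with differences from -0.20 to 0.25. Between miR-17-5p and its isomiR, 0 of the 8 probes passed by limma (1.11% of all probes did), and 2 had an unadjusted p under 0.05. The largest difference was that of GSTO1 at ILMN_2227573, 0.75 (standard error 0.18, adjusted p = 0.0919), and 1 probe passed without canonical replicate 1 or without isomiR replicate 2.

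**Figure D2:**
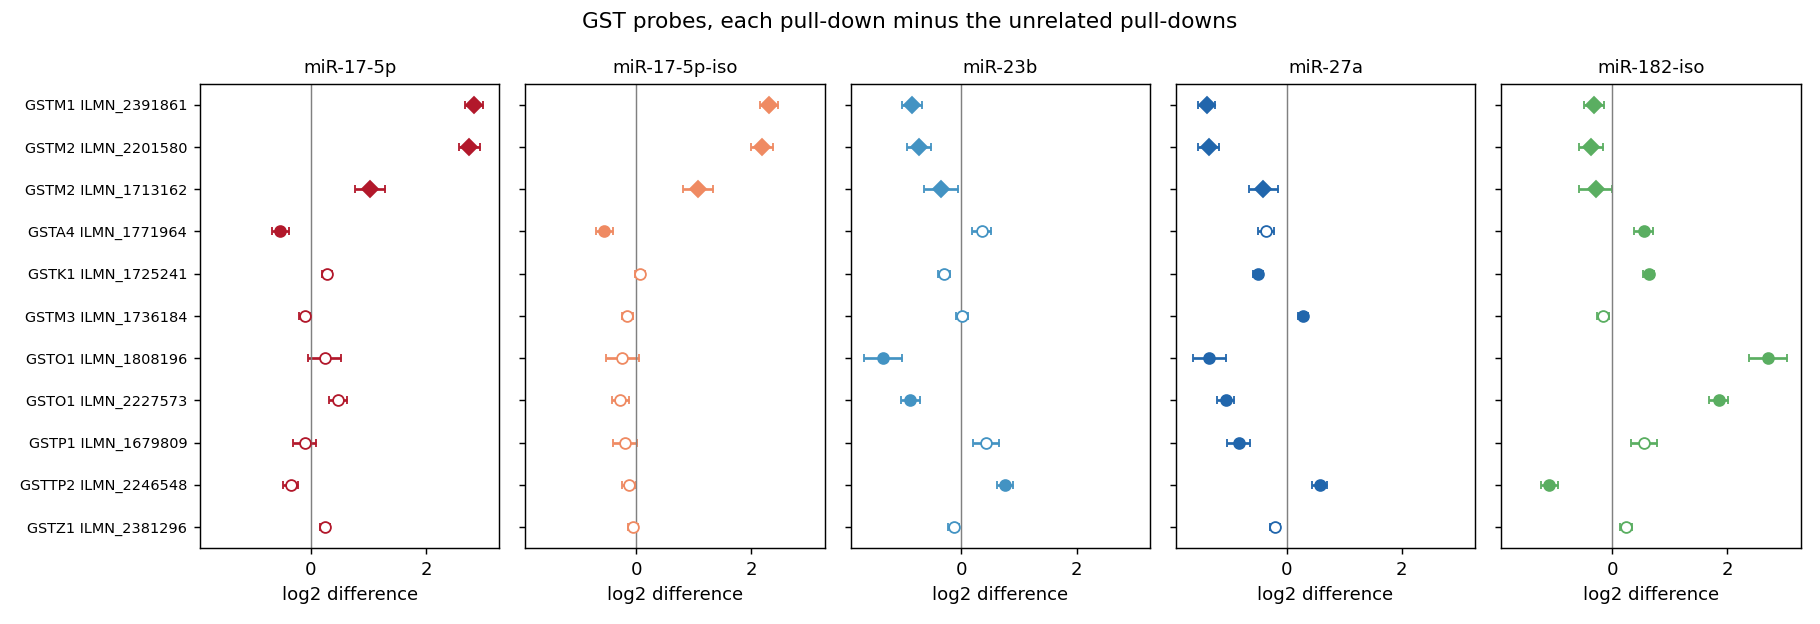
Log2 difference (horizontal axis) of each GST probe between a pull-down and the unrelated pull-downs, in 1 panel per duplex. Diamonds are GSTM1 and GSTM2, for which no test is marked, circles are other GST genes, filled where the adjusted p was under 0.05, and bars are standard errors. The GSTM1 diamonds lie at 2.83 and 2.30 in the 2 panels on the left, where GSTA4 is the filled circle, and GSTO1 reaches 2.71 with miR-182-iso.

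Among other genes, those whose profile over the 13 libraries was most like the mean of the 3 GSTM1 and GSTM2 probes are named by Pearson r, as a description. The 13 points fall into 6 libraries of the miR-17 family and 7 others, a division that all these correlations share. Of 10441 probes with 1 gene symbol, 74 had an r of at least 0.9. The 10 highest were of DGUOK (2 probes, r = 0.98 and 0.97), a mitochondrial deoxyguanosine kinase, TECR (0.97), a reductase of fatty acid elongation, LGALS1 (0.97), a galectin, SNX8 (0.97), a sorting nexin, TMEM11 (0.97), a mitochondrial inner membrane protein, CES2 (0.96), a carboxylesterase, ACOT7 (0.96), an acyl-CoA thioesterase, SOD2 (0.96), the mitochondrial superoxide dismutase, and COX5B (0.96), a subunit of cytochrome c oxidase. TECR also followed the members within the 6 libraries of the miR-17 family (r = 0.98), whereas the second DGUOK probe (0.44) and SOD2 (0.50) did so less closely. By Spearman's rank correlation 4 of these 10 probes were among the 10 highest. For GST genes outside the pair, r lay between -0.59 (GSTM3) and 0.48 (GSTK1).

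**Figure D3:**
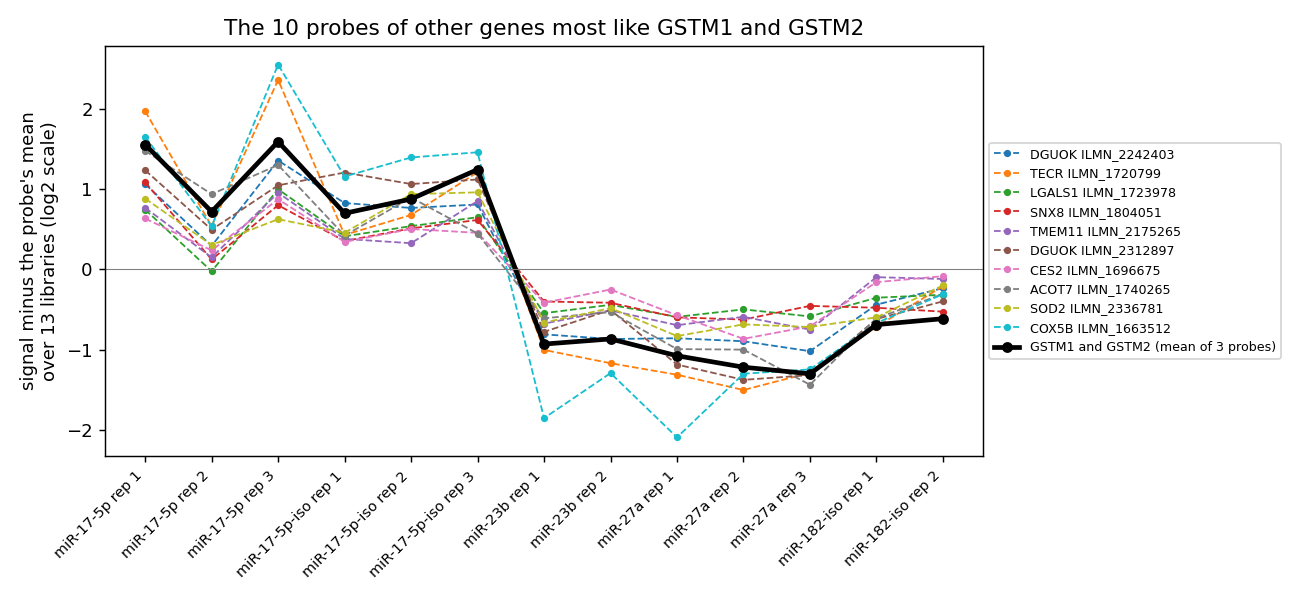
Signal minus the probe's mean over the 13 libraries (log2 scale, vertical axis) for the mean of the GSTM1 and GSTM2 probes (thick line) and for the 10 probes of other genes with the highest Pearson r (dashed), by library. Lines only guide the eye between libraries. The profiles are above their mean in the 6 libraries of the miR-17 family, except LGALS1 in miR-17-5p replicate 2, and below it in the 7 others.

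The enzymes that make, regenerate and use glutathione, together with the thioredoxin system, were followed with a list of 55 genes, of which 39 were measured by 55 probes. With miR-17-5p, 9 probes were higher and 6 lower, so that 27.3% were called against 9.85% of all probes, while the median difference was -0.04 against -0.02. The largest were ESD, an S-formylglutathione hydrolase, at 1.61 and 1.02 by its probes ILMN_1720285 and ILMN_1669818 (adjusted p = 0.00807 and 0.0346 from limma), and MGST1, a membrane-bound glutathione transferase, at 0.84 (adjusted p = 0.0136). The second ESD call was lost without any 1 of 8 libraries (adjusted p of 0.0530 to 0.141; it held without canonical replicate 2, any isomiR replicate or miR-27a replicate 2), and the MGST1 call without canonical replicate 1 (0.0523) or 3 (0.0740). With the replicate number as a block, the second ESD call was lost (0.0715). With all other pull-downs as the comparator, the second ESD call and the MGST1 call were lost (adjusted p = 0.0644 and 0.0646 from limma). With the isomiR, 5 were higher and 1 lower, or 10.9% against 7.85% of all probes, led by ESD at 1.17 (adjusted p = 0.0327), MGST1 at 1.06 (adjusted p = 0.00428) and the glutaredoxin GLRX at 0.71 (adjusted p = 0.0300). The MGST1 call held without any 1 library, whereas the ESD call was lost without any 1 of 7 (adjusted p of 0.0551 to 0.141; it held without any canonical replicate, isomiR replicate 1 or miR-27a replicate 2 or 3) and the GLRX call without any 1 of 7 (0.0518 to 0.109; it held without any canonical replicate, miR-27a replicate 2 or 3 or miR-182-iso replicate 2). The ESD and GLRX calls were both lost with the replicate block (adjusted p = 0.0706 and 0.0554 from limma). They were also lost without both miR-182-iso libraries, at 1.07 and 0.52 (adjusted p = 0.0621 and 0.102). The same held with all other pull-downs as the comparator, at 0.77 and 0.54 (adjusted p = 0.156 and 0.0977). MGST1 (ILMN_2355168) stood at 9.74 ± 0.44 (SD, n = 3) with miR-17-5p and 9.96 ± 0.25 (SD, n = 3) with the isomiR, and all 3 isomiR libraries were above the 7 unrelated ones. The miR-23b libraries were at 8.43 and 8.46, the miR-27a libraries at 8.81 to 9.03, and the miR-182-iso libraries at 9.24 and 9.41, which overlapped the lowest miR-17-5p library at 9.24. Since these 2 comparisons share their comparator libraries, the values are only set side by side.

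With miR-182-iso, 18 of the 55 probes were higher and 9 lower, 49.1% against 32.4% of all probes, led by the mitochondrial peroxidase PRDX3 at 2.12 and 1.82 (adjusted p = 0.0163 and 0.00544 from limma) and the NADPH-producing PGD at 1.90 (adjusted p = 0.000492). Without miR-182-iso replicate 2 both PRDX3 calls were lost, at 1.68 and 1.38 (adjusted p = 0.212 and 0.117). With miR-27a, 9 were higher and 11 lower, 36.4% against 30.4%, among them the mitochondrial glutaredoxin GLRX2 at 1.42, the heme oxygenase HMOX1 at -1.18 and the peroxiredoxin PRDX1 at -1.08 (adjusted p = 0.000265, 0.00112 and 0.00296), which held without any 1 library. With miR-23b, 5 were higher and 2 lower, 12.7% against 8.91%, with the lipid peroxide reductase GPX4 at 1.31 by both probes (adjusted p = 0.00728 and 0.00446) and MGST1 at -0.92 (adjusted p = 0.0208). All 3 calls were lost without miR-23b replicate 1 (0.136, 0.0864 and 0.212) or 2 (0.0670, 0.0673 and 0.137). Between miR-17-5p and its isomiR, 0 of the 55 passed by limma, against 1.11% of all probes, and 2 had an unadjusted p under 0.05.

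**Figure D4:**
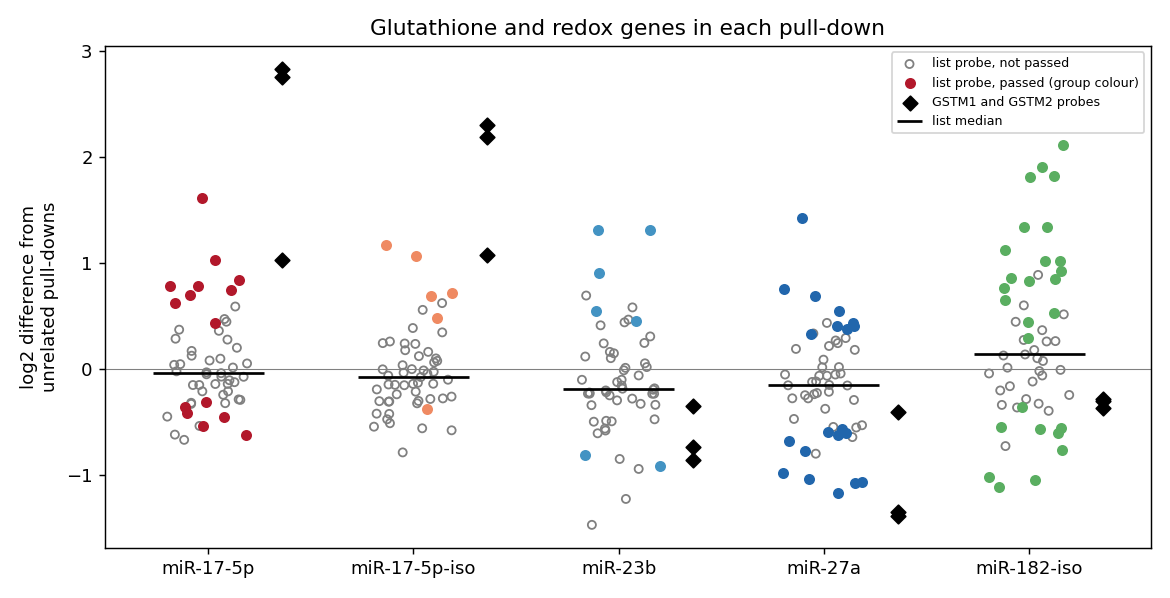
Log2 difference from the unrelated pull-downs (vertical axis) of the 55 probes of the glutathione and redox list in each pull-down, filled where the adjusted p was under 0.05, with the list median as a line. Diamonds are the GSTM1 and GSTM2 probes. The list medians lie between -0.19 and 0.13, and the 2 brighter GSTM probes lie above every list probe with miR-17-5p and its isomiR. GSTM1 and GSTM2 were chosen for their height with miR-17-5p, so nothing is read from that.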

How the data were processed

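The 13 pull-down libraries had been hybridized to Illumina HT-12 bead arrays. The authors background-adjusted the signals with lumi 2.2.1, applied a variance-stabilizing transformation and robust spline normalization, kept probes detected in all mock-transfected controls, and deposited the resulting log2 values, which were used unchanged. A table of non-normalized signals was not used, because the names of its 26 per-sample columns match no label. Gene symbols came from the platform annotation, and 10442 probes matched the RefSeq gene table (GRCh38.p14) by gene ID; 1562 had no symbol.

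One limma model (version 3.58.1, R 4.3.3) of 5 groups was fitted to all probes, with two-sided tests. Comparators weighted unrelated families equally, and miR-17-5p and its isomiR counted as 1 family. For GSTM1 and GSTM2 the isomiR contrast, first planned as a test, is given without p-values because its comparator libraries entered their choice. The contrasts of these genes among the unrelated duplexes, first run as tests, are given without p-values for the same reason. P-values were Benjamini-Hochberg adjusted over all 12007 probes and called under 0.05. The fit was tested on simulated data. Named were all GST probes, up to 3 called probes per list and contrast, and the 10 probes most like GSTM1 and GSTM2. These members and lists were chosen with earlier results of these data known. Alternatives were a replicate block, leaving out libraries, another comparator, brighter probes only, quantile normalization, a trended robust variance and an adjusted p under 0.01.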

Additional observations from a re-analysis of the deposited data

How the results depend on the processing

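Both brighter probes (GSTM1 and GSTM2 ILMN_2201580) kept their higher level with each miR-17 duplex in every alternative run. With all other pull-downs weighted equally, which includes the other miR-17 duplex, the miR-17-5p differences were 2.26 and 2.203. The isomiR difference of the dim GSTM2 probe, 1.07 as reported, was 0.82 there and 1.00 with the replicate block. An adjusted p under 0.01 as the threshold leaves the differences themselves unchanged. Between miR-27a and miR-182-iso they were -0.81 for GSTM1 and -0.74 for the brighter GSTM2 probe. No call is given for them, since the choice of the genes used these libraries. The limit to brighter probes removes the dim probe and gives no value for it. Without any 1 library, where a group left with 1 library was assumed to vary like the others, the miR-17-5p difference ranged from 2.67 to 3.05, 2.53 to 3.03 and, for the dim probe, 0.74 to 1.38. The isomiR difference ranged from 2.19 to 2.36, 2.12 to 2.28 and 0.80 to 1.28. Between miR-17-5p and its isomiR the dim probe ranged from -0.33 to 0.31 (0.31 without canonical replicate 2, 0.23 without isomiR replicate 3). Between miR-27a and miR-182-iso, GSTM1 ranged from -0.92 to -0.74 and GSTM2 from -0.82 to -0.66, and between miR-23b and miR-27a the dim probe from -0.00067 (without miR-23b replicate 1) to 0.077. Calls among other GST probes were 16 of 40 tests, 8 at an adjusted p under 0.01, 8 of 32 without both miR-182-iso libraries and 9 to 17 without any 1 library (9 and 10 without miR-23b replicate 1 and 2). Between miR-17-5p and its isomiR they were 0 to 1. Of the glutathione list 75 of 275 tests were called, 30 at an adjusted p under 0.01, 42 of 220 without both miR-182-iso libraries and 41 to 84 without any 1 library (48 and 49 without miR-23b replicate 1 and 2, 47 and 41 without miR-182-iso replicate 1 and 2). With all libraries, the share of all probes called was 7.85% to 32.4% by contrast. That share was not computed for any alternative, so nothing is read about either list from these counts. The cause of the changes in the counts was not tested. The libraries were not treated as paired, since the labels state no pairing. The deviations from group means do not settle whether replicate numbers share effects. Of same-numbered pairs 13 of 23 correlated above 0.1 (-0.33 to 0.63), against 16 of 44 pairs of different numbers (-0.60 to 0.52). With the replicate block 17 of the other GST tests and 66 of the glutathione tests were called. Of 311 alternatives for 16 called differences of other GST probes, 64 lost the call and 0 reversed, and of 354 for 18 differences of listed genes, 62 lost it and 0 reversed.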

Other observations

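The genes around the GSTM cluster on chromosome 1 were followed as a list of 26, of which 9 were measured, each by 1 probe: AHCYL1, ATXN7L2, CELSR2, GNAI3, GSTM3, PSMA5, PSRC1, RBM15 and SARS1. With miR-17-5p, 0 of the 9 passed by limma, against 9.85% of all probes, and 0 had an unadjusted p under 0.05. Their median difference was -0.00094, against -0.02 over all probes. With the isomiR 0 passed, against 7.85% of all probes, and 3 had an unadjusted p under 0.05. With miR-182-iso 2 of the 9 (22.2%) passed, against 32.4% of all probes, and with miR-27a 2 of the 9 (22.2%) against 30.4%. From so few probes nothing is read about the neighbors. The 2 with miR-27a were SARS1 and GSTM3, which is also counted among the other GST probes. SARS1, a seryl-tRNA synthetase, was 1.46 higher with miR-182-iso (adjusted p = 0.00332 from limma) and PSMA5, a proteasome subunit, 1.31 higher (adjusted p = 0.0159). Without miR-182-iso replicate 2 both calls were lost, at 1.00 and 0.80 (adjusted p = 0.0852 and 0.272). SARS1 was lower with miR-27a at -0.74 (adjusted p = 0.0411 from limma), but without both miR-182-iso libraries the difference was -0.28 (adjusted p = 0.418). The call was also lost without canonical replicate 3, isomiR replicate 2 or 3, or any 1 miR-27a replicate (adjusted p of 0.0502 to 0.176). It held without canonical replicate 1 or 2 or isomiR replicate 1. These settings kept more than 1 library in every group. Where 1 library was left in a group, the difference was -0.78 without miR-23b replicate 1 and -0.69 without miR-23b replicate 2. It was -0.58 without miR-182-iso replicate 2. With all other pull-downs as the comparator the SARS1 call was lost, at -0.63 (adjusted p = 0.0657 from limma).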
